A study of Homo sapiens with 8 samples.

Results

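The response to MAPKAPK2 shRNA 2 was described by RNA sequencing of HCT116 cells, a widely used line from a human colorectal carcinoma. It rests on 4 of the 8 libraries of the series, all at 20 mM glucose. Of these, 2 are from cells with a control shRNA (short hairpin RNA) and 2 from cells with the shRNA numbered 2 against MAPKAPK2. The labels give a time of 24 h for these control libraries and none for the shRNA 2 libraries, so whether the times match is not known. The members are the genes with an FPKM (fragments per kilobase of exon, scaled to library size) of at least 1 in at least 2 of these 4 libraries, which holds for 14455 of 58735 genes, 11089 of them protein-coding. The other libraries are from control shRNA cells kept for 24 h without glucose, which were not compared here, and from cells with MAPKAPK2 shRNA 1 at 20 mM glucose, which are set beside shRNA 2 where stated. Both enter the fits described as using all 8 libraries, where they help to estimate the spread. The shRNA 1 libraries also enter the direct test against shRNA 2, and a fit against the controls that gave list medians for shRNA 1. For how long the knockdown cells carried their hairpins, whether they were a pool or a clone, and whether libraries of a group came from separate cultures could not be read from the labels. The p-values therefore measure only the spread between these libraries, which may be technical.

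MAPKAPK2 encodes MK2, a serine/threonine kinase that the p38 MAP kinases phosphorylate and activate in stress and cytokine signalling. MK2 in turn phosphorylates the small heat shock protein HSP27 (gene HSPB1) and the RNA-binding protein tristetraprolin (ZFP36), which binds AU-rich elements of short-lived mRNAs such as those of cytokines and immediate-early genes. An shRNA is processed in the cell to a short guide strand that directs the RNA-induced silencing complex to matching mRNAs.

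Between 16180777 and 19794574 reads fell in genes in each of the 4 libraries, with 13821 to 14160 genes at 1 FPKM or more. The shRNA 2 libraries differed more from each other than libraries of the other groups did: the median absolute log2 difference per gene was 0.230 between them and 0.119 between the controls, and 541 against 450 genes differed by at least 1 on the log2 scale. In a principal component analysis of the 4 libraries the first component (62.4% of the variance) separated shRNA 2 from control, and the second (22.2%) separated shRNA 2 replicate 1 from shRNA 2 replicate 2. Transcripts of mitochondrial DNA took 6.83% and 7.82% of the reads in the controls and 7.06% and 9.10% with shRNA 2. Of the 8 epithelial markers all were expressed above 1 FPKM in all 4 libraries. Of 42 markers of other cell types 37 were under 1 FPKM in all 4 libraries and 10 were listed at 0 in each of them. Of the others, DES was under the filter, and COL1A1, EGFL7, SYT1 and TUBB3 did not pass the test.

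The mRNA of the targeted gene was nearly absent with shRNA 2. MAPKAPK2 (chr1:206684944-206734283, GRCh38, + strand) had 16.4 and 16.2 FPKM in the control libraries (mean 16.3 ± 0.0822, SD, n = 2) and 0.982 and 0.80 FPKM with shRNA 2 (mean 0.891 ± 0.129, SD, n = 2), from 1148 and 1213 reads and 78 and 54 reads. The groups did not overlap, and 5.46% of the control level was left. The fold change, on the log2(FPKM + 1) scale used throughout, was -3.20 (SE 0.13, limma adjusted p = 0.00468); this scale understates the change of genes with low FPKM. With shRNA 1 the level was 2.77 and 2.54 FPKM. The difference of shRNA 2 from shRNA 1, in a fit to those 4 libraries, was -0.95 (SE 0.16, limma adjusted p = 0.032); without either shRNA 2 library that fit called 0 genes.

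Across the transcriptome, 1714 genes (11.9% of those tested) passed limma's test at a Benjamini-Hochberg adjusted p under 0.05. Of these 1041 (7.2% of the genes tested) rose and 673 (4.66%) fell, and 437 and 273 of them did so by at least 1 on the log2 scale. The median over all genes tested was 0.02, the lowest adjusted p was 0.00418, and 4402 genes had an unadjusted p under 0.05. Among called genes whose higher group averaged 5 FPKM or more, 58 rose over 4-fold and 26 fell to under 25% of the control level. In 8678 genes (60%) the libraries of the groups did not overlap, with shRNA 2 higher in 4615 (31.9%) and lower in 4063 (28.1%). The count of calls depended on which libraries were in the fit. When the spread was estimated from all 8 libraries it was 3231 (1902 up, 13.2% of the genes tested, and 1329 down, 9.19%), and 1648 of the 1714 genes were among them with the same sign. Without control replicate 1 the 4-library fit called 58 genes, and without control replicate 2 it called 59. Without shRNA 2 replicate 1 or replicate 2 it called 2290 and 2000. Each of these fits has a single library in an arm and 1 residual degree of freedom, and the cause of the difference between them was not tested. The counts of list members given below shrank without a control: without either control library the 4-library fit called at most 4 rises and at most 3 falls in any list. The split between rises and falls depended on the scaling: with libraries scaled by their sum of reads, 780 genes rose and 912 fell, so that 46.1% of calls were rises and not 60.7%. The filter also bears on direction: 367 genes passed it only through shRNA 2 and 479 only through the controls. Of 810 genes with a control mean under 1 FPKM, 101 rose and 0 fell. The plot of change against level shows both directions above that level.

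**Figure D1:**
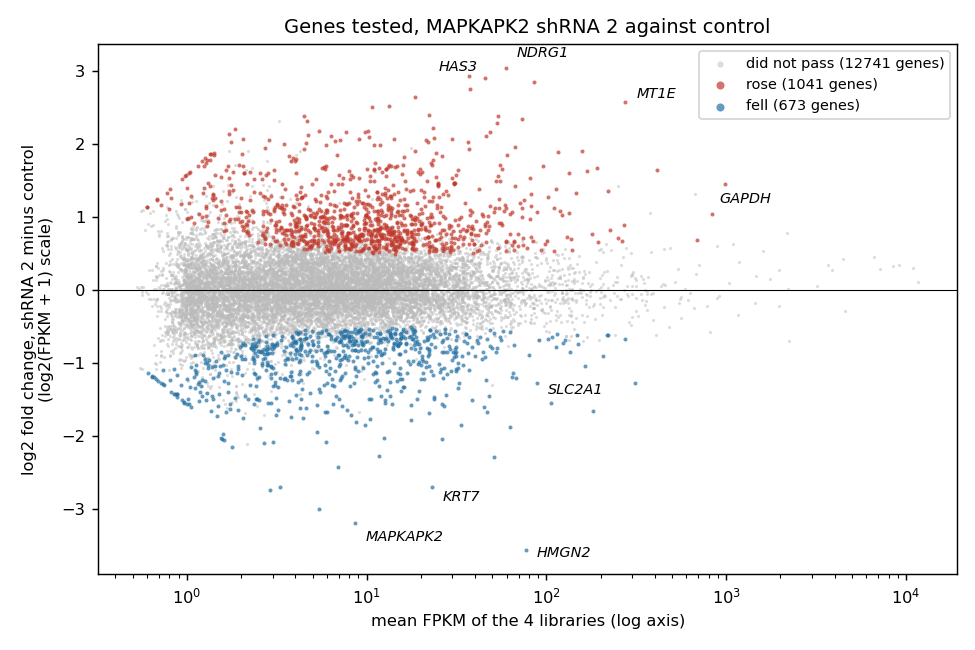
Each point is 1 of 14455 genes: mean FPKM of the 4 libraries (x, log axis) against the log2 fold change of MAPKAPK2 shRNA 2 minus control (y). Red points are the 1041 genes that rose and blue points the 673 that fell at an adjusted p under 0.05; HMGN2 and MAPKAPK2 lie lowest, at -3.57 and -3.20, and NDRG1 highest, at 3.04.

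Of 28 tested genes of the p38 and MK2 pathway 3 rose and 3 fell, MAPKAPK2 among the latter. These counts stand beside 7.2% and 4.66% of all genes, and the median log2 fold change was 0.18. MAPKAPK2 and RPS6KA5 passed the filter only through the controls, and DUSP10 only through shRNA 2. The 4-library fit called 1 fall and no rise without control replicate 1 or control replicate 2. MAPKAPK3, the closest relative of MK2 and also a p38 substrate, had 24 and 23.9 FPKM in the controls and 35.9 and 31.9 FPKM with shRNA 2. Both shRNA 2 libraries were above both controls, but the log2 difference of 0.48 did not pass in the 4-library fit (SE 0.12, limma adjusted p = 0.0638). MAPK14, which encodes p38 alpha, was at 8.84 and 8.44 against 11.8 and 12.2 FPKM (log2 difference 0.43, limma adjusted p = 0.0713). In the fit to all 8 libraries both passed, at adjusted p = 0.0127 and 0.0212. The more distant MAPKAPK5 stood at 3.62 and 4.22 and 3.02 and 3.81 FPKM (log2 difference -0.16, adjusted p = 0.553), with 20.9% of its exon bases shared with other genes.

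The mRNAs of HSPB1 and ZFP36, the MK2 substrates named above, did not pass the test. HSPB1 was at 289 and 295 FPKM in the controls and 368 and 289.9 FPKM with shRNA 2 (log2 difference 0.16, SE 0.17, adjusted p = 0.574). ZFP36 was at 35.4 and 35 and 36.1 and 32.5 FPKM (log2 difference -0.04, SE 0.12, adjusted p = 0.862). For both the groups overlapped, and the proteins and their phosphorylation were not measured. Other members of the list passed. MAP3K5, which encodes the upstream kinase ASK1, rose from 2.85 and 3.01 to 6.37 and 8.02 FPKM, and MKNK2, which encodes a kinase of the translation factor eIF4E, from 31.6 and 29.6 to 62.1 and 48.4 FPKM. RPS6KA5, which encodes the nuclear kinase MSK1, fell from 2.25 and 2.18 to 0.472 and 0.628 FPKM. CDC25B, a phosphatase that activates cyclin-dependent kinases, rose from 55 and 54.6 to 82 and 85.4 FPKM.

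Of 24 AU-rich inflammatory mRNAs on the list 14 stayed under the filter, among them CXCL8, IL6, TNF and PTGS2, and 2 were at 0 in all 4 libraries. Of the 10 tested, PLAU (urokinase, 6.85 and 6.55 to 12.7 and 10.1 FPKM) and MYC (112 and 112 to 162 and 165 FPKM) rose, and IER3, an immediate-early survival gene, fell from 328 and 347 to 217 and 207 FPKM. PLAU and IER3 share 31.1% and 26.5% of their exon bases with other genes, so that part of their reads may belong to those. Among 15 AU-rich element binding proteins 1 rose, IGF2BP2 (31.9 and 31.9 to 75.1 and 79.5 FPKM), and 1 fell, ZFP36L2 (30.4 and 26.7 to 13.8 and 17.6 FPKM). For both lists the shares over all genes are 7.2% for rises and 4.66% for falls.

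The largest rise on this scale was that of NDRG1, a stress-responsive gene also induced by low oxygen. It had 11.8 and 12.2 FPKM in the controls and 121 and 92.7 FPKM with shRNA 2, a 8.92-fold rise (log2 3.04, SE 0.16, adjusted p = 0.00478). TMEM158, a RAS-induced membrane protein, rose 8.49-fold, from 7.98 and 7.59 to 69.5 and 62.6 FPKM. NT5E, the ectonucleotidase that makes extracellular adenosine, rose 7.55-fold, from 19.6 and 20.4 to 137 and 164 FPKM. All 3 lay far outside the spread of either group. MAOB, a mitochondrial monoamine oxidase, rose 7.44-fold, from 8.48 and 9.39 to 71.6 and 61.4 FPKM. PKIB, an inhibitor of protein kinase A, rose 7.48-fold, from 2.09 and 2.93 to 18.7 and 18.9 FPKM. EHF, an ETS factor of epithelia, rose 7.29-fold, from 3.31 and 3.07 to 20.8 and 25.7 FPKM. MDGA1, a membrane-anchored adhesion glycoprotein, went from under 1 FPKM (0.75 and 0.756) to 8.6 and 7.81 FPKM and passed the filter only through shRNA 2. PLEK2, a pleckstrin family protein, went from 22.6 and 24 to 139 and 107 FPKM.

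NGFR, the p75 neurotrophin receptor, passed the filter only through the controls and fell from 11.4 and 9.49 to 0.331 and 0.524 FPKM (log2 -3.00, SE 0.16, adjusted p = 0.00478); 27.1% of its exon bases overlap another gene. ID3, an inhibitor of basic helix-loop-helix factors, fell from 84.5 and 86.6 to 18.6 and 14.9 FPKM, or 19.5% of control. BMP4, a growth factor of the BMP family, fell to 26.5% of control, from 101 and 98.1 to 27.2 and 25.5 FPKM. FSD1 fell from 10.1 and 10.5 to 1.83 and 1.48 FPKM. In the dot plot of the genes with the largest changes, control and shRNA 2 libraries are separate for each gene, as the rule for choosing them required; IFI6, an interferon-induced gene, has the widest gap between its shRNA 2 libraries among the falls shown (6.96 and 2.37 FPKM, against 21.4 and 19 FPKM in the controls).

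**Figure D2:**
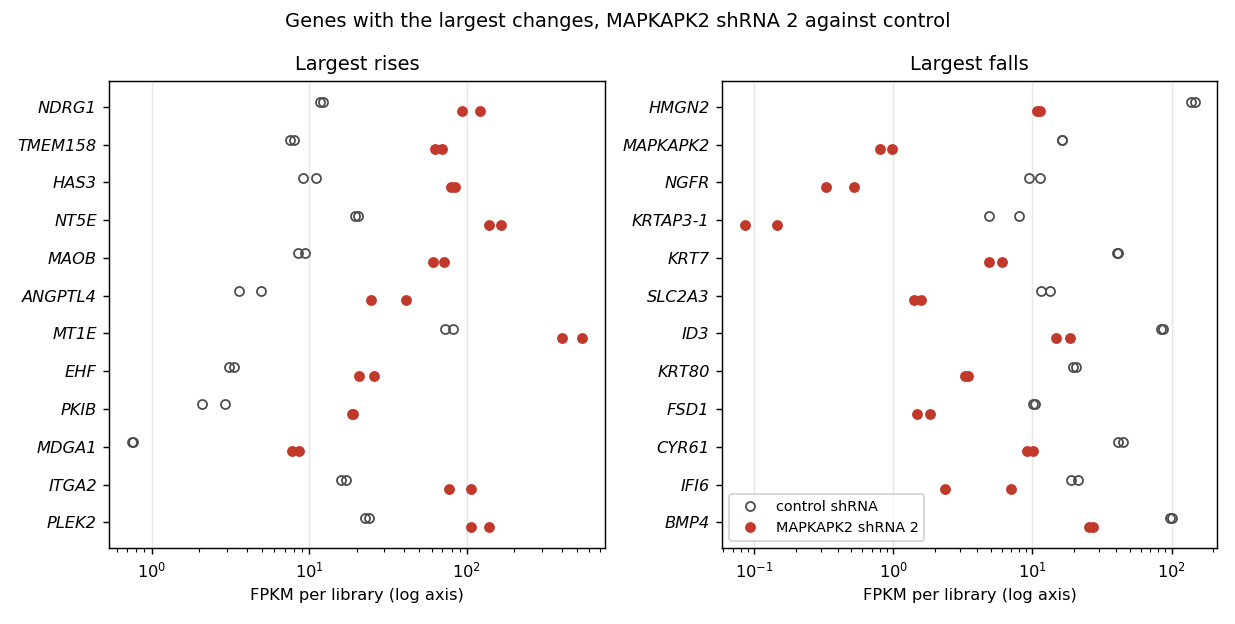
FPKM per library (log axis) of the protein-coding genes with the largest rises and falls among those past the threshold, open grey for the 2 control libraries and red for the 2 MAPKAPK2 shRNA 2 libraries. HMGN2 goes from 138 and 147 to 11.4 and 10.8 FPKM, and NDRG1 from 11.8 and 12.2 to 121 and 92.7 FPKM.

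HMGN2, a nucleosome-binding high mobility group protein, had the lowest adjusted p of all genes tested. It was at 138 and 147 FPKM in the controls and 11.4 and 10.8 FPKM with shRNA 2, from 5789 and 6574 and 543 and 436 reads, so that 7.79% of the control level was left (log2 -3.57, SE 0.12, adjusted p = 0.00418). With shRNA 1 it was at 96.9 and 85.8 FPKM, and shRNA 2 was lower than shRNA 1 by a log2 difference of -2.93 (SE 0.12, adjusted p = 0.0112). HMGN2 (chr1:26472450-26475972, GRCh38, + strand) has many processed copies in the genome, and reads of near-identical copies cannot be assigned with certainty. Of 36 annotated copies, looked up after the values were seen, 3 were tested: HMGN2P3, HMGN2P5 and HMGN2P41. All 3 fell, as HMGN2P3 did from 8.32 and 9.67 to 1.35 and 1.82 FPKM, and their counts may include reads of HMGN2. HMGN2P41 passed the filter only through the controls, with 9 and 19 reads there and 1 and 1 with shRNA 2. Copies under the filter had few reads and went both ways. HMGN2P6 had 2 and 8 reads in the controls and 0 and 0 with shRNA 2, and HMGN2P28 had 0 and 1 and 0 and 5. Chromatin genes moved in both directions: of 16 tested, HMGN2 among them, 2 rose and 3 fell, beside 7.2% and 4.66% of all genes. HMGA2, an architectural factor of fetal and tumour cells, rose from 14.2 and 13.4 to 54.7 and 64.5 FPKM. HMGB1 fell from 62.2 and 67.8 to 27.3 and 26.8 FPKM. Of the DNA methyltransferases, DNMT1, the maintenance enzyme, fell from 41.9 and 39.4 to 14.5 and 14.1 FPKM, and DNMT3B, a de novo enzyme, rose from 7.57 and 7.03 to 16.3 and 17 FPKM.

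Most tested genes of the hypoxia response rose with shRNA 2. In low oxygen, HIF transcription factors are no longer hydroxylated by the EGLN enzymes and marked for decay by VHL, and they raise genes of glycolysis, mitophagy, collagen hydroxylation and feedback. Of 29 listed genes 27 were tested (CA9 and LOX were under the filter), and 17 rose and 1 fell, beside 7.2% and 4.66% of all genes. Their median log2 fold change was 1.18, against 0.02 for all genes, and was 1.15 in shRNA 2 replicate 1 and 1.06 in shRNA 2 replicate 2 when each was set against the control mean. EGLN3 passed the filter only through the shRNA 2 libraries. Without control replicate 1, and likewise without control replicate 2, 4 members rose in the 4-library fit; with all 8 libraries in the fit, leaving out either of these controls left 17.

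The rises spread over the functions of the response. BNIP3 and BNIP3L, receptors for the removal of mitochondria, went from 6.68 and 7.77 to 33.2 and 26.6 FPKM and from 7.82 and 9.1 to 40.8 and 37.1 FPKM. P4HA1, a subunit of the enzyme that hydroxylates collagen, rose from 8.27 and 9.59 to 31.1 and 28.1 FPKM, and ERO1A, an oxidase of protein folding in the endoplasmic reticulum, from 12.4 and 13.1 to 34.1 and 40.2 FPKM. ANGPTL4, a secreted inhibitor of lipoprotein lipase, rose 7.68-fold, from 4.94 and 3.6 to 41 and 24.6 FPKM, with the shRNA 2 libraries well apart from each other. The feedback hydroxylases EGLN1 and EGLN3 rose from 11.3 and 11.1 to 25.9 and 27.6 FPKM and from 0.585 and 0.542 to 3.31 and 2.8 FPKM. Of the factors themselves, EPAS1 (HIF2 alpha) rose from 2.36 and 2.46 to 10.6 and 11.9 FPKM. HIF1A was at 25.9 and 26.9 and 31.8 and 46.9 FPKM and did not pass (log2 difference 0.53, adjusted p = 0.147). VEGFA, the angiogenic target, was at 4.37 and 3.98 and 7.46 and 5.64 FPKM (adjusted p = 0.0942), and ADM at 15 and 18.1 and 25.5 and 20.5 FPKM (adjusted p = 0.14). The member that fell was PFKFB3, which makes the activator of phosphofructokinase, from 14.8 and 13.5 to 9.16 and 8.17 FPKM; its relative PFKFB4 rose from 3.6 and 3.05 to 14.3 and 10.8 FPKM.

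Several glycolytic enzymes rose, while the glucose transporters SLC2A1 and SLC2A3 fell. Of 23 tested genes of glycolysis and glucose uptake 10 rose and 2 fell, beside 7.2% and 4.66% of all genes, with a median of 0.58. LDHA, which reduces pyruvate to lactate, rose 2.57-fold, from 114 and 131 to 335 and 294 FPKM (log2 1.35, SE 0.15, adjusted p = 0.011). HK2, a hexokinase of the first step, rose 2.72-fold, from 8.51 and 7.54 to 22.4 and 21.3 FPKM. PGK1 rose from 76.5 and 81.8 to 184 and 144 FPKM, and GAPDH, among the most abundant mRNAs that rose, from 527 and 567 to 1174 and 1074 FPKM. In each of these 4 genes both shRNA 2 libraries were above both controls. PDK1, which holds back pyruvate entry into mitochondria, rose from 0.771 and 0.763 to 3.25 and 3.21 FPKM and passed the filter only through shRNA 2. Against these, SLC2A1 (GLUT1), the basal glucose transporter, fell from 128 and 124 to 53.1 and 49.8 FPKM (log2 -1.28, SE 0.12, adjusted p = 0.00784). SLC2A3 (GLUT3), a high-affinity transporter, fell from 11.5 and 13.4 to 1.41 and 1.58 FPKM (log2 -2.43, SE 0.14, adjusted p = 0.00478). With shRNA 1 these transporters were at 61.3 and 55.9 and 0.155 and 0.191 FPKM. PKM, PFKP and ENO1 were higher in both shRNA 2 libraries but did not pass (adjusted p = 0.0627, 0.0533 and 0.10). Without control replicate 1, and likewise without control replicate 2, no glycolytic rise and 1 fall remained called in the 4-library fit; with all 8 libraries in the fit, 8 and 9 rises were called without these controls.

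A direct test separated the hairpins here. In the fit to the 4 MAPKAPK2 shRNA libraries, 1650 genes (11.4%) differed between the shRNAs, 1038 (7.18%) higher and 612 (4.23%) lower with shRNA 2. Of the hypoxia genes 14 of 27, and of the glycolytic genes 12 of 23, were higher with shRNA 2, and 0 were lower. The median log2 fold change of the hypoxia list against control was 0.13 with shRNA 1, and that of the glycolysis list was -0.18. ANGPTL4 was at 1.11 and 1.42 FPKM with shRNA 1, below the controls, and the shRNA 2 libraries were higher by 3.86 on the log2 scale (SE 0.26, adjusted p = 0.0112). ALDOC, an aldolase, was at 2.43 and 2.08 FPKM with shRNA 1, 7.66 and 8.83 FPKM in the controls and 22.8 and 16.1 FPKM with shRNA 2. AK4 and INSIG2 were high with both: 17.5 and 19.2 and 7.1 and 7.9 FPKM with shRNA 1, and 19.5 and 21.6 and 9.69 and 10.2 FPKM with shRNA 2. This direct test rests on all of its libraries: it called 17 and 20 genes without shRNA 1 replicate 1 and replicate 2, and 0 genes without either shRNA 2 replicate (4916 and 5200 at an unadjusted p under 0.05), so that each call between the hairpins printed here was lost without either shRNA 2 library. The plot of hypoxia and glycolysis genes shows each library.

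**Figure D3:**
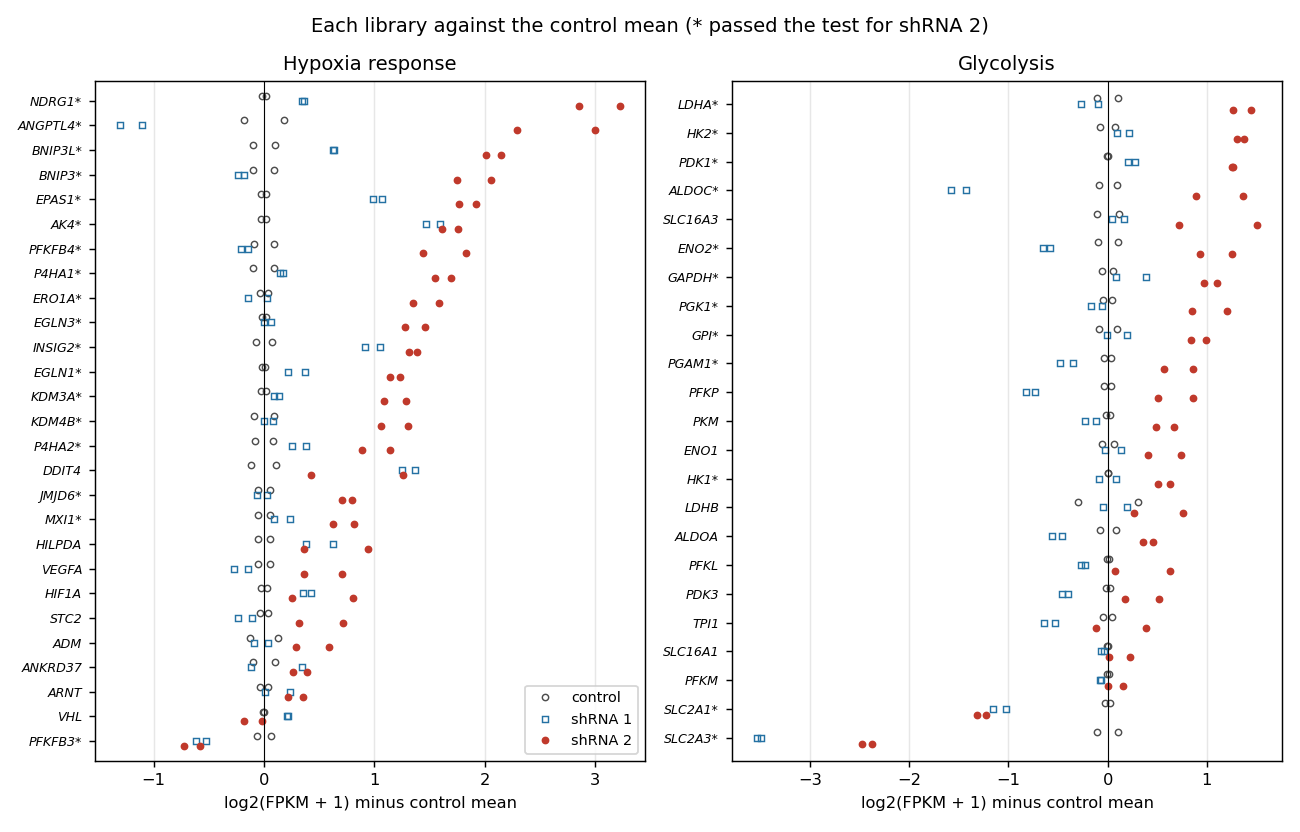
Each library's log2(FPKM + 1) minus the control mean for the 27 tested hypoxia genes (left) and the 23 tested glycolysis genes (right), in open grey for control, blue squares for shRNA 1 and red for shRNA 2; a star marks genes that passed for shRNA 2. The log2 fold change of shRNA 2 is above 0 in 25 of 27 genes on the left and 21 of 23 on the right; the genes that passed as falls are PFKFB3 on the left and SLC2A1 and SLC2A3 on the right.

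The promoters of these genes were searched for the core of the HIF response element, the letters ACGTG on either strand, in the 250 bases before the annotated start (RefSeq, GRCh38.p14). It is present in 10 of the 21 hypoxia promoters that could be matched and 9 of 21 glycolysis promoters. Among all 27195 promoters of that length 18.7% hold it, and among the 9115 matched genes that were tested 24.2%. Over all called genes the share was 23.8% for rises and 24.6% for falls. Of the DNA replication genes described below, 11 of 35 matched promoters hold it. In PGK1 the letters occur on both strands close together, in AK4 as the palindrome CACGTG, and in ANGPTL4 near the far end of the window. These 3 are shown because they rose and differ in how the letters are placed, each as 120 bases upstream of the start with the match in capitals, on the gene's strand. A match is a run of letters, and binding was not measured.
PGK1, chrX:78104005-78104124 (+ strand): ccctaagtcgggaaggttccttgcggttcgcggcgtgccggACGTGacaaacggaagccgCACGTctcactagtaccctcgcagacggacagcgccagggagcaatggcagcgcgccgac
AK4, chr1:65147400-65147519 (+ strand): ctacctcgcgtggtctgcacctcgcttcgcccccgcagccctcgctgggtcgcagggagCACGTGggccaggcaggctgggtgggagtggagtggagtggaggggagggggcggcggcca
ANGPTL4, chr19:8363905-8364024 (+ strand): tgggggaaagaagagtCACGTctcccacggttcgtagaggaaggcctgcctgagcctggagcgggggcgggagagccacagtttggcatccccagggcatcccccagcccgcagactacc

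Most tested genes of hyaluronan, matrix and adhesion rose with shRNA 2. Of 19 tested 11 rose and 0 fell, beside 7.2% and 4.66% of all genes, with a median of 0.68. HAS3, which makes hyaluronan at the cell surface, rose 8.12-fold, from 11 and 9.12 to 83.9 and 79.2 FPKM (log2 2.91, SE 0.14, adjusted p = 0.00478). The integrin subunits ITGA2, a collagen receptor, and ITGA6 and ITGB4, which pair as the laminin receptor of hemidesmosomes, rose as well. ITGA2 went from 15.8 and 17.1 to 77 and 106 FPKM, ITGA6 from 17.9 and 16 to 69.8 and 90.9 FPKM and ITGB4 from 50.9 and 46.5 to 201 and 166 FPKM. LAMB3, a laminin chain of epithelial basement membranes, rose from 16.5 and 15 to 38.8 and 32.8 FPKM. CD44, the hyaluronan receptor, was at 37.2 and 37.2 and 43.9 and 49.8 FPKM and did not pass (adjusted p = 0.154). Against shRNA 1, 7 of the 19 were higher and 4 lower with shRNA 2, beside 7.18% and 4.23% of all genes. PLAU was at 48.7 and 47.8 FPKM with shRNA 1, above its levels with shRNA 2 (log2 difference -2.00, adjusted p = 0.0112). Without control replicate 1 or control replicate 2 the 4-library fit called 4 and 3 rises in the list; with all 8 libraries in the fit it was 10 in both cases.

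Some mesenchymal genes rose, among them SNAI2, which was under 1 FPKM in both controls. Of 10 tested, 5 rose and 0 fell, beside 7.2% and 4.66% of all genes (1 and 1 without control replicate 1 or control replicate 2 in the 4-library fit). LOXL2, which crosslinks collagen, rose from 3.17 and 2.62 to 18.8 and 14.5 FPKM and ITGA5, the fibronectin receptor subunit, from 11.6 and 11.9 to 33 and 26.8 FPKM. The transcription factors SNAI2 and ZEB1 went from 0.264 and 0.166 to 2.38 and 2.91 FPKM and from 0.249 and 0.507 to 1.87 and 2.97 FPKM, and both passed the filter only through the shRNA 2 libraries. VIM, CDH2 and TWIST1 stayed under the filter. FN1, fibronectin itself, passed it only through the controls, at 1.76 and 1.42 and 0.351 and 0.667 FPKM (adjusted p = 0.0847). Among epithelial genes EPCAM fell from 108 and 116 to 70.0 and 68.2 FPKM. CDH1, E-cadherin, was at 15.1 and 13.5 and 9.62 and 10.8 FPKM (log2 difference -0.44, adjusted p = 0.0867). The desmosomal genes DSC2 and JUP rose, DSC2 from 8.19 and 7.83 to 16.4 and 21.6 FPKM and JUP from 65 and 64.9 to 109.6 and 98.1 FPKM. In RNA of a whole culture, fewer cells with a transcript and less of it per cell cannot be told apart.

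Keratins moved in both directions. Of 13 tested keratin and keratin-associated genes 2 rose and 4 fell, beside 7.2% and 4.66% of all genes. KRT6A passed the filter only through shRNA 2, and KRTAP3-1 and KRT20 only through the controls. KRT7, a keratin of simple ductal epithelia, fell from 40.4 and 41.2 to 6.01 and 4.9 FPKM (log2 -2.70, SE 0.13, adjusted p = 0.00478). KRT80 fell from 20.6 and 19.7 to 3.46 and 3.3 FPKM and KRT81 from 8.65 and 10.3 to 2.33 and 2.19 FPKM, the latter a hair keratin with close copies whose reads are hard to separate. KRTAP3-1 had 59 and 104 reads in the controls and 2 and 1 with shRNA 2, and KRT6A, a keratin of stressed epithelium, had 6 and 0 reads in the controls and 79 and 62 with shRNA 2. The main keratins of the line, KRT8, KRT18 and KRT19, did not pass in the 4-library fit. KRT8 was at 489 and 498 and 361 and 285 FPKM (adjusted p = 0.0799), KRT18 at 285 and 300.2 and 204 and 177 FPKM (adjusted p = 0.0536) and KRT19 at 610.1 and 615 and 905 and 673 FPKM (adjusted p = 0.308). For KRT8 and KRT18 both shRNA 2 libraries lay below both controls, and with all 8 libraries in the fit both passed (limma adjusted p = 0.0209 and 0.0122).

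Several DNA replication genes fell with shRNA 2 and none passed as a rise. Of 40 tested genes of origin licensing, replication forks and nucleotide supply 0 rose and 16 fell, beside 7.2% and 4.66% of all genes, and the median was -0.45. E2F2, a transcription factor that drives this programme, fell from 9.17 and 8.64 to 2.8 and 3.38 FPKM (log2 -1.28, SE 0.14, adjusted p = 0.010). CDC6, the licensing factor that loads the MCM helicase, fell from 27.8 and 29.2 to 10.7 and 12.8 FPKM. ORC1, the largest subunit of the origin recognition complex, fell from 20.2 and 18.2 to 8.5 and 9.72 FPKM. For all 3 the groups were far apart. PCNA, the sliding clamp, fell from 176 and 198 to 111 and 112 FPKM, UHRF1, which recruits DNMT1 to newly made DNA, from 56.1 and 49.5 to 28.4 and 26.7 FPKM, and RRM2, the regulated subunit of ribonucleotide reductase, from 48 and 54.3 to 20.7 and 26 FPKM. Of the helicase subunits MCM2 to MCM7, MCM7 passed (123 and 126 to 85.4 and 70.7 FPKM); MCM5 was at 31.5 and 32.9 and 30.5 and 28.4 FPKM (adjusted p = 0.536). Against shRNA 1, 2 of the 40 were higher with shRNA 2, UHRF1 and TYMS, and 0 were lower, beside 7.18% and 4.23% of all genes. Without control replicate 1, and likewise without control replicate 2, the 4-library fit called 0 of these falls; with all 8 libraries in the fit 14 and 12 were called.

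The promoters of 35 of the 40 replication genes could be matched to the RefSeq table. An E2F motif in the spellings TTTGGCGC, TTTCCCGC or TTTCGCGC, on either strand, lies in the 250 bases before the start in 14 of them. It lies in 2.39% of all promoters and 4.05% of those of the matched genes tested. Over all called genes the share was 3.15% for rises and 5.07% for falls. The stretch before E2F2, which fell most of the list, is shown with the match in capitals.
E2F2, chr1:23531234-23531353 (- strand): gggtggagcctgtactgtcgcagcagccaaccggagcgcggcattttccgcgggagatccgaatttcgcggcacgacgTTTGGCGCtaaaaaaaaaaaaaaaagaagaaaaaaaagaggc

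**Figure D4:**
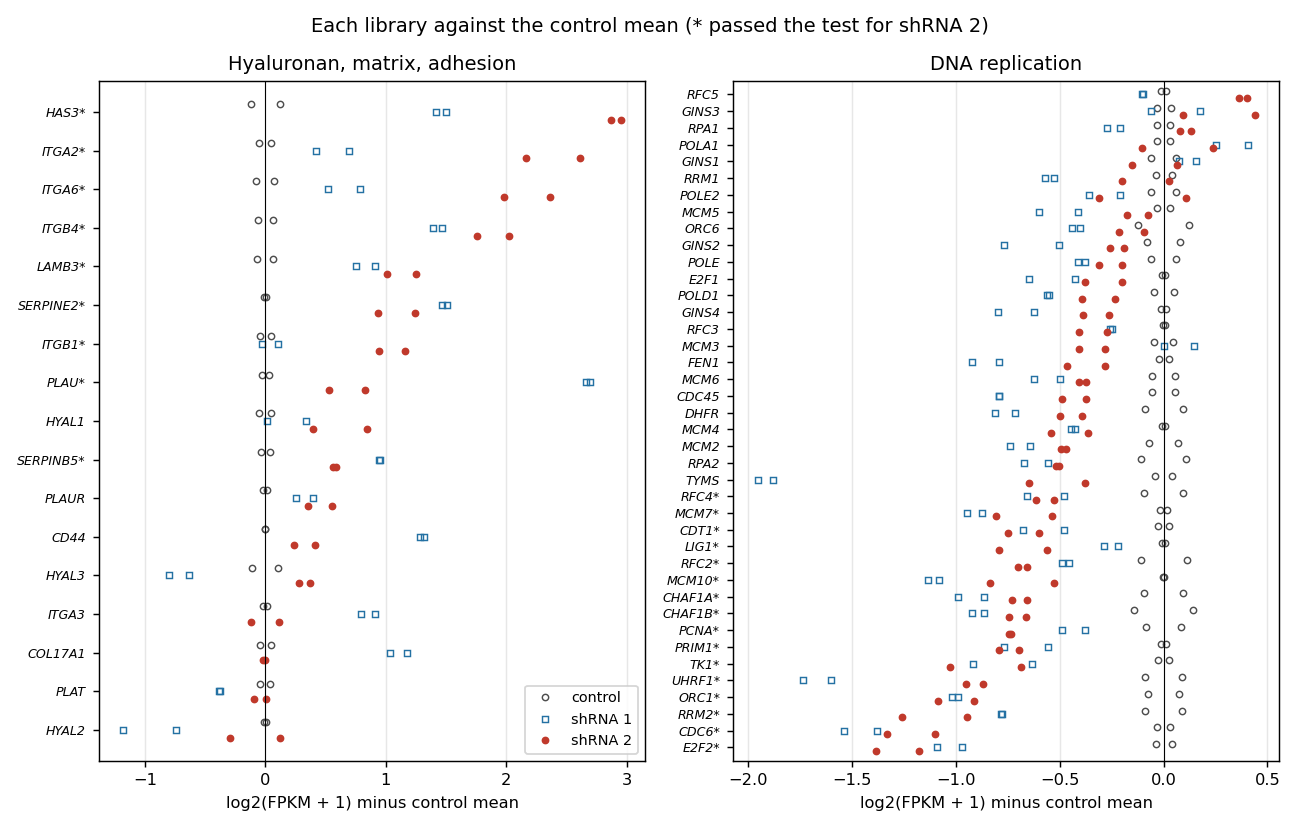
Each library's log2(FPKM + 1) minus the control mean for 17 of the 19 tested genes of hyaluronan, matrix and adhesion (left) and the 40 tested DNA replication genes (right), with the same symbols as in the plot of hypoxia and glycolysis genes. HAS3 stands at 2.91 with shRNA 2 on average, and the replication genes with a star lie below the controls with both hairpins.

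Of 29 tested mitotic genes 1 rose, CCNB2 (19.6 and 22.5 to 32.4 and 31 FPKM), and 1 fell, KIF2C (35.5 and 39.4 to 25.6 and 24.3 FPKM). These counts stand beside 7.2% and 4.66% of all genes, and the list median was 0.05. Against shRNA 1, 12 of the 29 were higher with shRNA 2 and 0 lower, beside 7.18% and 4.23% of all genes. The list median against control was -0.52 with shRNA 1. Regulators of the G1 phase moved in both directions. CDKN1C (p57) and CDKN2B (p15), inhibitors of cyclin-dependent kinases, rose from 3.59 and 3.94 to 21.8 and 14.7 FPKM and from 2.24 and 2.05 to 6.82 and 6.25 FPKM. CDK6 fell from 22.4 and 19.9 to 6.64 and 10.3 FPKM. The E-type cyclins went opposite ways, CCNE1 up from 17.3 and 17.2 to 36.6 and 35 FPKM and CCNE2 down from 4.05 and 3.32 to 1.14 and 1.07 FPKM; 37.1% of the exon bases of CCNE2 are shared with other genes.

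Some targets of ATF4, the factor of the integrated stress response that drives amino acid supply, fell with shRNA 2. Of 25 tested 0 rose and 7 fell, beside 7.2% and 4.66% of all genes, with a median of -0.30 and 7 members above 0 (0 falls without control replicate 1 or control replicate 2 in the 4-library fit; 4 and 6 with all 8 libraries). ASNS and SLC1A4 passed the filter only through the controls. ATF3 fell from 14.4 and 13.9 to 3.75 and 2.89 FPKM, CHAC1, which degrades glutathione, from 9.56 and 7.37 to 2.26 and 2.02 FPKM and PHGDH, the entry enzyme of serine synthesis, from 10.8 and 10.8 to 3.24 and 3.14 FPKM. MTHFD2, a mitochondrial folate enzyme, fell from 59.2 and 63.9 to 34.2 and 37.5 FPKM, with 33.2% of its exon bases shared with other genes. ATF4 itself was at 149.6 and 162 and 109.7 and 90.7 FPKM and did not pass (log2 difference -0.64, adjusted p = 0.054). DDIT3 (CHOP) and TRIB3 were at 3.66 and 5.67 against 5.7 and 4.85 FPKM and 11.8 and 12.5 against 12.9 and 11.3 FPKM, and in both the groups overlapped.

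Some chaperones of the endoplasmic reticulum rose. Of 22 tested 5 rose and 0 fell, beside 7.2% and 4.66% of all genes, with a median of 0.48. With all 8 libraries in the fit 12 rose and 1 fell, beside 13.2% and 9.19% of all genes (0 rises without control replicate 1 or control replicate 2 in the 4-library fit). DNAJC3, an inhibitor of the kinase PERK, rose from 7.69 and 7.15 to 17.5 and 21.9 FPKM. The disulfide isomerases P4HB and PDIA3 rose from 153 and 147 to 245 and 230.2 FPKM and from 72.2 and 82.4 to 118 and 129.5 FPKM. EDEM1, which extracts misfolded glycoproteins, rose from 6.15 and 5.62 to 10.1 and 11.9 FPKM. HSPA5 (BiP) was at 222 and 229 and 302 and 317 FPKM (log2 difference 0.46, adjusted p = 0.0893), and MANF lay below the controls at 26.2 and 27 against 20.3 and 16 FPKM (adjusted p = 0.0766). Among cytosolic heat shock genes 2 of 19 rose and 2 fell in the 4-library fit, beside 7.2% and 4.66% of all genes.

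Targets of YAP and SRF, transcriptional regulators that respond to cell tension, moved in both directions. Of 25 tested 4 rose and 6 fell, beside 7.2% and 4.66% of all genes, and THBS1 passed the filter only through the controls. CYR61, a matricellular protein and YAP target, fell from 44.6 and 41.3 to 10.04 and 9.21 FPKM (log2 -2.05, SE 0.12, adjusted p = 0.00478). AMOTL2 fell from 29.8 and 26.4 to 7.33 and 7.52 FPKM, AJUBA from 20.9 and 19.5 to 6.57 and 6.84 FPKM, and YAP1 itself from 48.6 and 44.8 to 16.6 and 21 FPKM. Its paralogue WWTR1 (TAZ) rose from 4.74 and 4.64 to 8.45 and 11 FPKM, as did TPM4, a tropomyosin, from 47.7 and 49.6 to 98.5 and 97.3 FPKM. The cytoplasmic actins did not pass (ACTB at 940.0 and 943 and 840.4 and 939 FPKM). The 4-library fit called 1 fall without control replicate 1 and 2 without control replicate 2, and no rise.

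Feedback inhibitors of ERK signalling were among the rises. Of 26 immediate-early and feedback genes 5 rose and 1 fell, beside 7.2% and 4.66% of all genes (none without control replicate 1 or control replicate 2 in the 4-library fit). DUSP5, a nuclear phosphatase of ERK, rose from 59.4 and 59.6 to 145 and 146 FPKM, and the Sprouty genes SPRY4 and SPRY2 from 24.5 and 22.8 to 48.9 and 54.8 FPKM and from 2.01 and 1.7 to 5.01 and 4.93 FPKM. SPRY1 passed the filter only through shRNA 2. DUSP6, the cytoplasmic counterpart, was at 20.7 and 22.3 and 22.6 and 22.5 FPKM. EGR1 and FOS were at 46.3 and 44.2 against 36.1 and 36.1 FPKM and 3.06 and 4.08 against 2.92 and 3.17 FPKM, and neither passed (adjusted p = 0.136 and 0.547). AREG, a ligand of the EGF receptor and the most abundant protein-coding mRNA that fell, went from 425 and 451 to 186 and 174 FPKM, and was at 71.5 and 71.1 FPKM with shRNA 1.

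Lipid genes passed in both directions. Of 25 cholesterol genes 2 rose and 3 fell, beside 7.2% and 4.66% of all genes. SREBF2, the master regulator, fell from 36.6 and 34.5 to 16.7 and 15.8 FPKM and HMGCS1, an enzyme of the pathway's start, fell from 28 and 27.2 to 13 and 14.1 FPKM. Of 21 fatty acid genes 3 rose and 0 fell: PLIN3, a lipid droplet coat protein (73.2 and 64.6 to 165 and 137 FPKM), LPIN1, a phosphatidate phosphatase (2.21 and 2.52 to 5.12 and 5.94 FPKM), and SCD, the stearoyl desaturase (171 and 155 to 269 and 309 FPKM). SCD was at 58 and 60.4 FPKM with shRNA 1, and higher with shRNA 2 by 2.26 on the log2 scale (adjusted p = 0.0112).

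Several smaller groups held single large changes. The metallothioneins MT1E, MT2A and MT1X, which bind zinc and copper and are too alike for all reads to be assigned with certainty, rose: MT1E from 72.9 and 81.4 to 539.7 and 404 FPKM, MT2A from 171 and 227 to 712 and 539.9 FPKM and MT1X from 3.54 and 5.1 to 24.5 and 11.1 FPKM. SLC30A1, a zinc exporter induced by the same metal-sensing factor, did not pass (6.86 and 7.21 against 4.84 and 5.17 FPKM, adjusted p = 0.0843). Among 15 Wnt targets and inhibitors DKK1, a secreted Wnt inhibitor, fell from 271 and 283 to 86.6 and 87 FPKM and TCF7 rose from 3.37 and 3.48 to 8.54 and 8.36 FPKM. Among 22 p53 targets 2 rose and 3 fell, beside 7.2% and 4.66% of all genes. BTG2, an antiproliferative gene, rose from 8.57 and 9.62 to 32.2 and 29.2 FPKM, and GDF15, a stress cytokine, fell from 71.4 and 69 to 27.7 and 22.4 FPKM. With shRNA 1 GDF15 was at 102 and 94.5 FPKM, higher than with shRNA 2 (log2 difference -1.94, adjusted p = 0.0118). HMOX1, heme oxygenase and an NRF2 target, fell from 11.8 and 12.6 to 3.86 and 2.66 FPKM, while GCLC, of glutathione synthesis, rose from 8.93 and 8.38 to 14.8 and 15.6 FPKM. Of 25 tested interferon and antigen-processing genes 0 rose and 5 fell, among them IFI6, BST2 (2.14 and 1.96 to 0.33 and 0.222 FPKM) and OAS3 (10.7 and 9.27 to 5.91 and 6.12 FPKM); the shares over all genes are 7.2% and 4.66%. BST2, IFI27 and IFIT1 passed the filter only through the controls, and ISG20 only through shRNA 2.

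None of 35 ribosomal protein genes passed limma's test in the 4-library fit, with a median of -0.06 (2 had an unadjusted p under 0.05, and 1 passed with all 8 libraries and 1 by voom on recovered reads). None of 13 genes of mitochondrial DNA passed, although 12 lay above 0 and their median of 0.32 was above the upper quartile of all genes, 0.30 (2 had an unadjusted p under 0.05, and 1 passed with all 8 libraries and 2 by voom). The median was 0.08 in shRNA 2 replicate 1 and 0.51 in shRNA 2 replicate 2. Of 30 nuclear genes of the citric acid cycle and oxidative phosphorylation 4 rose and 0 fell, with a median of 0.14, and of 23 genes of ribosome biogenesis 1 rose and 2 fell. Of 13 genes of the RNA interference machinery 1 passed, AGO4, which rose from 2.76 and 2.71 to 4.61 and 5.02 FPKM. Beside the counts of these lists, 7.2% of all genes rose and 4.66% fell. The plot of list members sets these lists beside those above.

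Beyond the protein-coding genes, calls were fewer in number and often rested on few reads, and the shares called differed between gene types. Protein-coding genes made up 926 of the rises and 537 of the falls. Of 450 long intergenic RNAs 14 rose and 22 fell, and of 697 antisense genes 19 rose and 19 fell. Of 632 processed pseudogenes 2.22% rose and 3.64% fell. Larger shares were called among 200 miRNA genes (6.5% and 6%), 205 miscellaneous RNAs (6.34% and 5.85%), 227 small nuclear RNAs (6.17% and 5.29%) and 131 unprocessed pseudogenes (5.34% and 7.63%). The shares over all genes are 7.2% and 4.66%. RN7SL3, a copy of the signal recognition particle RNA, rose from 36 and 25 reads to 313 and 106, and has close copies elsewhere. MIR3605, counted over its hairpin, had 4 and 1 reads in the controls and 17 and 16 with shRNA 2. RNU7-140P, which passed the filter only through the controls, had 7 and 5 reads there. It had 0 in both shRNA 2 libraries, which allows up to 3 reads per library by counting error alone. The shares called differed with exon length: of the 3614 genes with the longest exons 8.33% rose and 3.04% fell, and of the 3616 with the shortest 4.09% rose and 4.54% fell. By chromosome the median log2 fold change ran from -0.08 on chromosome 19 to 0.08 on chromosome 18 among the nuclear chromosomes.

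Genes with the largest difference between the hairpins, among those that also passed against control, were of varied function. RNF128, a ubiquitin ligase of endosomes, had 4.51 and 5.22 FPKM in the controls, 23.7 and 23.5 FPKM with shRNA 2 and 2.83 and 2.92 FPKM with shRNA 1. ARG2, the mitochondrial arginase, had 1.85 and 1.97, 6.49 and 5.91 and 0.22 and 0.216 FPKM in the same order; 37.4% of its exon bases are shared with another gene. SULF2, a sulfatase that edits heparan sulfate outside the cell, ran the other way, with 2.11 and 2.16 FPKM in the controls, 0.523 and 0.467 FPKM with shRNA 2 and 5.39 and 5.47 FPKM with shRNA 1. SULF2 passed the filter only through the controls. TMEM263 had 10.7 and 9.99, 3.52 and 4.09 and 17 and 18.8 FPKM. ID3 stayed at 102 and 86 FPKM with shRNA 1 (log2 difference -2.42, adjusted p = 0.0112). NGFR, KRT80 and FSD1 did not differ between the hairpins at an adjusted p under 0.05 (log2 differences -0.10, 0.33 and -0.21, with SE 0.23, 0.13 and 0.16).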

How the data were processed

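Libraries were made from total RNA of HCT116 cells with random priming, per the labels' protocols, which do not say whether strand was kept. The authors deposited FPKM values for 58735 genes in 8 libraries. DESeq2 1.20.0, featureCounts 1.5.0-p3 and HISAT2 2.0.5 were used, per the submitters' processing notes, with no role given for each. All 58735 gene positions and exon lengths match GENCODE 29 on GRCh38. Each FPKM corresponds to a whole number of reads (tolerance 0.001, 100% of values), which gave back the reads per gene. Their sum was 0.932 to 1.05 times the library size the authors divided by; no label or header defines that size.

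The test was limma 3.58.1 (R 4.3.3) on log2(FPKM + 1) with group means, an intensity trend and Benjamini-Hochberg adjustment over the 14455 genes, fitted to the 2 control and 2 shRNA 2 libraries. It left 2 residual degrees of freedom. A like fit compared shRNA 2 with shRNA 1, and another compared shRNA 1 with control and gave its list medians. The script was tested on simulated data with known changes. Replicate numbers carry no known pairing, and no block was used. The correlation of replicate differences between control and shRNA 2 was -0.0247, which with 2 libraries a group cannot exclude a pairing.

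The members and the 41 gene lists (835 genes) were chosen with earlier results of these data known, so list counts are descriptions and carry no test. Named are MAPKAPK2, MAPKAPK3, MAPKAPK5, MAPK14, HSPB1 and ZFP36; the largest changes among called protein-coding genes whose libraries do not overlap, and whose higher group averages 5 FPKM or more; the most abundant called genes; the largest changes of other gene types; up to 4 members per list by p; and the largest differences from shRNA 1. Other list members were named after their values were seen. A few genes are counted in their lists but not reported here by name. Exon overlaps are annotated ones, and reads of overlapping or antisense genes cannot be assigned. Promoters are RefSeq sequences, matched by symbol. Alternatives were other pseudocounts, filters, scalings, moderation, a replicate block, all 8 libraries, limma voom on the recovered reads, and leaving out each library; scaling by the sum of reads and voom on all 8 libraries were added after the data were seen.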

Additional observations from a re-analysis of the deposited data

How the results depend on the processing

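With 2 libraries a group the estimate of spread limits every call: the count of 1714 genes for shRNA 2 against control became 160 with no filter on low values, 3020 with protein-coding genes only, 3231 with all 8 libraries, 3538 with a replicate block in all 8 libraries, 3280 with voom on recovered reads and 3991 with voom on all 8 libraries. Leaving out 1 library moved it between 58 and 2290 in the 4-library fit and between 1151 and 3288 with all 8 libraries (3288 and 2892 without shRNA 2 replicate 1 and 2). With a replicate block in the 4-library fit it was 1594, and 2261 against shRNA 1, where leaving out 1 library gave 0 to 20 calls; the correlation of replicate differences was -0.0247 between control and shRNA 2 and 0.103 between the hairpins, and with 2 libraries a group the shared numbers carry no known pairing. MAPKAPK2 passed in every alternative run, at -4.18 to -1.85. Of 172 named genes 135 passed, and 0 of those changed sign in any alternative. Most were named for large changes or small p in these same libraries, so their stable sign is no independent support. With no filter on low values 88 of the called named genes, MAPKAPK2 aside, no longer passed. Some medians changed sign: with no filter on low values, which adds members near 0 FPKM, the median was -0.070 for AU-rich inflammatory mRNAs, -0.00512 for mesenchymal genes and -0.12 for protein kinase A genes, and with quantile normalization it was 0.00 for mitochondrial DNA. Leaving out shRNA 2 replicate 1 and replicate 2 gave -0.0080 and 0.34 for HSPB1, -0.11 and 0.034 for ZFP36 and -0.072 and 0.28 for the BCL2 family median, in both the 4-library and the 8-library fits. The causes were not tested. Genes under 1 FPKM rest on few reads and were not tested.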
